A study of Mus musculus with 65 samples.

Results

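The genes described here are 67 cell cycle and mitosis genes of the mouse spinal cord, chosen by their symbols. They are the cyclins (Ccn, lettered a to l), the cyclin-dependent kinases (Cdk), their inhibitors (Cdkn), the Cdc genes, the checkpoint genes (Bub, Mad), subunits of the anaphase-promoting complex (Anapc), centromere proteins (Cenp), chromosome structure proteins (Smc), E2F factors and Top2a. Of the 8448 cDNA features on filter B of a set of NIA mouse clones, 82 carried 1 symbol of this kind. Features of the same gene were averaged, which gave 67 of the 4209 genes that the filter measured under 1 symbol. By family they were 10 cyclins, 8 kinases, 3 Cdkn genes, 15 Cdc genes, 3 Bub and 2 Mad genes, 5 Anapc subunits, 13 centromere proteins, 5 Smc genes, 2 E2F factors and Top2a. Symbols of the aurora kinases, Mki67 and Birc5 matched 0 features and are not analysed here. Of 33 textbook cell cycle genes listed for this purpose, 14 were measured. They include the inhibitors Cdkn1c and Cdkn2c, and Cdk5, which acts in neurons.

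All 65 spinal cords came from C57BL/6 mice of both sexes, 1 array for each mouse, with no genetic change in any group. Mice fed ad libitum (AL) on regular feed were taken as juveniles (n = 10, 17 to 44 days of age), at 6 months (n = 10, 169 to 194 days), at 16 months (n = 10, 476 to 499 days) and at 24 months (n = 10, 704 to 743 days). Calorically restricted (CR) mice were taken at 6 months (n = 8, 174 to 194 days), 16 months (n = 10, 472 to 499 days) and 24 months (n = 7, 673 to 743 days). They had regular feed for 13 weeks, then fortified feed at 90% of it for 1 week and at 75% for 1 week, and at 60% from then on. Each value is a Z score, the distance of a spot from the mean of its own array in units of that array's SD. A Z score carries no fold and no depth of counting, and the number of arrays limits its precision. In a whole cord, fewer cells of a type and less RNA per cell cannot be told apart.

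A cell that divides passes from growth into DNA synthesis when D-type cyclins with Cdk4 or Cdk6 release E2F factors from their repressors. Cyclin A and cyclin B with their kinases then carry it through replication and into mitosis, where the spindle checkpoint holds the anaphase-promoting complex back until every kinetochore is attached. Cohesin keeps sister chromatids together until then and condensin packs them. Most neurons of the cord have left the cycle for good, whereas glial progenitors still divide after birth and, at a low rate, in adults. Several genes with cycle names act elsewhere: Cdk9, Cdk12, Cdk19, Ccnc, Ccnh and Cdc73 in transcription, Ccnl1, Ccnl2 and Cdc40 with splicing, Cdk5 in neurons, and Cdc42 with its partners in the actin cytoskeleton.

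Genes of the late cycle are known for a shared promoter layout, a cell cycle genes homology region (CHR) near the start site with CCAAT boxes around it. The promoters of Ccnb2 (a mitotic cyclin), Cdkn3 (a phosphatase that acts on Cdk2), Cenpa (the histone variant that marks centromeres) and Top2a (topoisomerase II, used to untangle chromosomes) are printed so that their values can be read side by side. All 4 promoters hold a CHR and at least 2 CCAAT boxes, wherever these lie in the printed bases. They run from 250 bases before to 50 after the RefSeq start site on GRCm38.p6, 5′ to 3′ on the gene's own strand. Capitals mark TTTGAA (the CHR), CCAAT, and the E2F motifs TTTCCCGC and TTTGGCGC, each on either strand.
Ccnb2 (chr9:70421505-70421804, minus strand): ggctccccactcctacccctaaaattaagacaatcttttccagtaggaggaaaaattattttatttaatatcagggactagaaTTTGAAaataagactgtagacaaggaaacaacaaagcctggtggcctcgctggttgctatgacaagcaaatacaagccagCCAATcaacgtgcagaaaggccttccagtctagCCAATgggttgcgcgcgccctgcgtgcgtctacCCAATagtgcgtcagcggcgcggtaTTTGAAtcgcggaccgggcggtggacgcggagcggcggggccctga
Cdkn3 (chr14:46760291-46760590, plus strand): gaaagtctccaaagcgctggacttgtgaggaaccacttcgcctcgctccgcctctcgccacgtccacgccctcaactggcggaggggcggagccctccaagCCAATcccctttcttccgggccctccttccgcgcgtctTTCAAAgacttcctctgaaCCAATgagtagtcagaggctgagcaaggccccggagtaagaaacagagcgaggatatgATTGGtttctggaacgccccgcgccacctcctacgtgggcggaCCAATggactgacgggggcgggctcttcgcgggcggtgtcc
Cenpa (chr5:30666636-30666935, plus strand): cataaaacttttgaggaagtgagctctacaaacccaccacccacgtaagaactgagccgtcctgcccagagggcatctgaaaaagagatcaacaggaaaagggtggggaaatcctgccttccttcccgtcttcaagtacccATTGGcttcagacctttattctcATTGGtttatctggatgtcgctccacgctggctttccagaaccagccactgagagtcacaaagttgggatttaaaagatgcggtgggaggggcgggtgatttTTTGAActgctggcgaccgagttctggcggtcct
Top2a (chr11:99024140-99024439, minus strand): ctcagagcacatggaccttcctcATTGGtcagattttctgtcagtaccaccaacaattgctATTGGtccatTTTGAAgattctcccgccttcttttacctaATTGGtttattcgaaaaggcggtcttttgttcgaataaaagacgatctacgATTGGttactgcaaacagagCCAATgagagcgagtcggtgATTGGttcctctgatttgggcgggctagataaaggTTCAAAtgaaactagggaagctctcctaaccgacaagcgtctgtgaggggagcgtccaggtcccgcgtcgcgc

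Counted from the start site, a CHR began at positions -167 and 5 of Ccnb2, -111 of Cdkn3, 17 of Cenpa, and -179 and -23 of Top2a. Bub3 and Cenpl were the other members with a CHR and at least 2 CCAAT boxes, which made 6 such genes. The share of all genes with both was not counted. RefSeq promoters were at hand for 57 of the 67 members. A CHR was present in 14 of them (24.6%, against 20.2% of 27025 genes of the genome), CCAAT in 31 (54.4% against 41.1%) and an E2F motif in 5 (8.77% against 1.8%). A match is a run of letters and no proof of a site in use.

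The median level of the cell cycle genes was -0.0863, against -0.0368 over all 7782 rows tested, where a row is a gene or a feature with several symbols or none. Of the 67 genes, 30 lay above the mean of the array (48.5% of all rows did) and 56 lay between -1 and 1 (72.6% of rows). Of the members, 3 were among the top 10% of rows and 6 among the bottom 10%. The highest means over the 65 mice were those of Cdkn3 (2.46), Cenpb (2, a protein that binds centromeric repeats), Cdc42se1 (1.62, a small Cdc42 effector), Smc3 (1.11, a cohesin subunit) and Mad2l1bp (1.06, which turns the spindle checkpoint off). The lowest were Ccnh (-2.48, the cyclin of the Cdk-activating kinase), Cdc16 (-1.52, a subunit of the anaphase-promoting complex), Cenpw (-1.48), Cdc7 (-1.47, a kinase that fires replication origins) and Cenpc1 (-1.41). Those of them that are outside the naming rule, Cdkn3, Cenpb, Smc3, Ccnh, Cdc16 and Cdc7, were picked for their place in this order. Because clones differ in length and spotting, these levels rank spots and not transcripts.

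Of the proliferation genes, Top2a had a mean level of -0.507, Ccnb2 -0.924, Bub1 (a checkpoint kinase) -0.0864 and Ccna2 (cyclin A) 0.116. The levels of the group means varied little within a gene. Their range over the 7 stage and diet groups had a median of 0.14 Z units for the members and 0.146 over all rows, about the size of the SD among mice within a group (median 0.138 for the members, 0.147 over all rows).

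**Figure D1:**
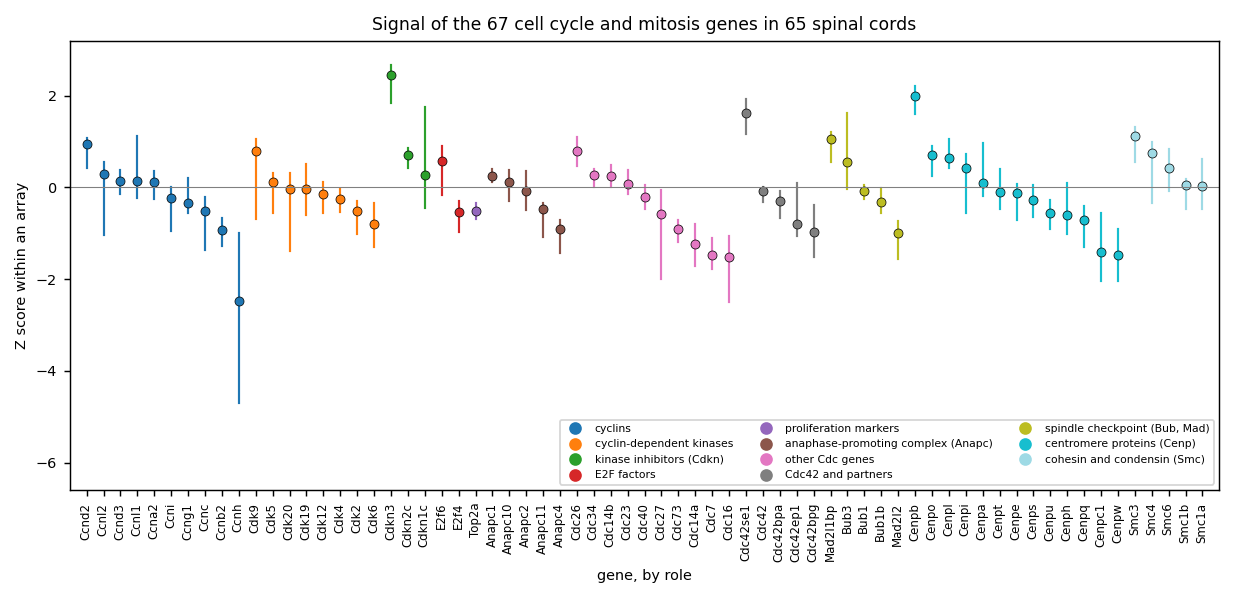
Z score within an array (vertical axis) of each of the 67 genes, ordered by role, with a point at the mean of 65 mice and a line from the lowest to the highest mouse. Cdkn3 stands at 2.46 and Ccnh at -2.48, and every role with more than 3 genes holds both high and low spots except the Smc genes, whose 5 means are all above 0.

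The level of a gene depended on which clone measured it. More than 1 feature was present for 10 members, which gave 23 pairs of features. Ccnd2 (cyclin D2) had 5 features, with means of 2.47, 2.03, 0.553, 0.539 and -0.857. The 3 features of Anapc1, the scaffold subunit of the anaphase-promoting complex, had means of 1.69, 0.19 and -1.14. The features of Top2a stood at -0.246 and -0.767, and those of Cdk4 at 0.23 and -0.732. Nor did features of the same gene follow each other from mouse to mouse. After removal of group and run means, the correlation over 62 arrays ranged from -0.382 to 0.403 with a median of -0.0509, and 2 of the 23 pairs exceeded 0.3. Feature pairs share arrays, and this is given as a description. The position of a feature on the filter carried part of its level, since feature numbers taken in a repeat of 22 accounted for 34% of the variance of the feature means.

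**Figure D2:**
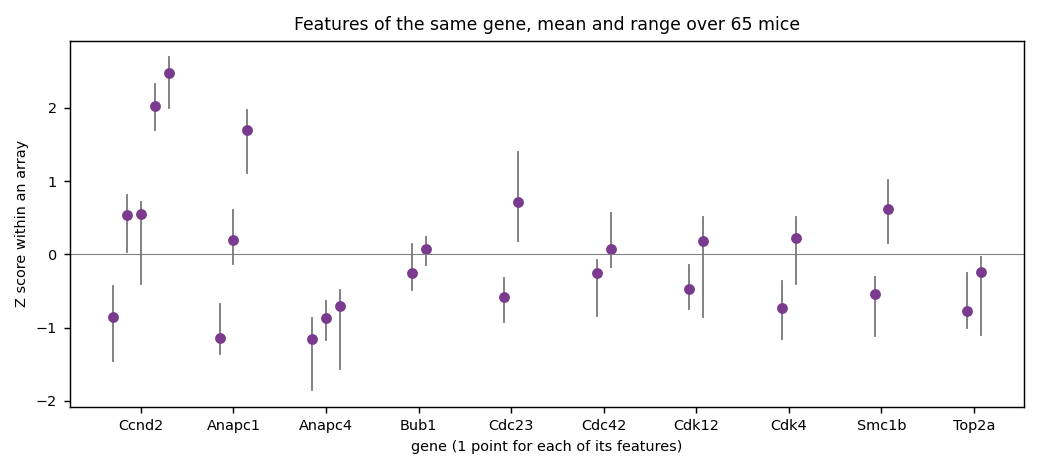
Z score within an array (vertical axis) of every feature of the 10 genes with more than 1 feature, as the mean of 65 mice with a line from the lowest to the highest mouse. The 5 features of Ccnd2 run from -0.857 to 2.47, and the ranges of features of the same gene often do not meet.

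Before the comparisons, facts of the arrays that touch them were these. The labels name no batch, but arrays numbered 22 to 43 and 66 to 67 shared a shift of the whole profile against the other arrays. These 24 arrays are called the second run here and the other 41 the first run. The division was made on the main axis of variation (first principal component) of these same scores, with arrays 31 to 33 placed by their numbers. Second-run arrays numbered 6 of 10 AL mice at 24 months and 2 of 10 at 6 months, so run and age were partly mixed. Array 33, an AL male at 6 months, stood apart, with a median correlation of 0.731 with the other arrays, and arrays 31 and 32, both CR mice at 6 months, stood beside it. Outside these 3 arrays the lowest median correlation was 0.938. Every value given below with run in the model comes from a fit that also left out arrays 31 to 33. Its shift from the deposited value therefore combines both changes. Few defining markers of the tissue were on the filter. Of the listed neuronal markers 3 of 13 were measured, which were Nefl at 0.983, Uchl1 at 0.533 and Slc17a6 at -0.292, and of the oligodendrocyte and myelin markers 1 of 10, with 0 of the 5 listed for lymphocytes or for endothelium.

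The first comparison asked whether the cell cycle genes of juvenile cords, in which glial progenitors still divide, differed from those of adult cords. None of the 67 did by the moderated test of limma after Benjamini-Hochberg adjustment over all 7782 rows. From the juveniles to the mean of the 3 adult AL ages, 0 members passed, where 0.193% of rows (15) did, and 3 members had an unadjusted p under 0.05 (4.48%, against 2.57% of rows). The median difference was -0.000667 Z units for the members and 0.000333 over all rows. From the juveniles to 6 months 0 members passed (0.141% of rows did) and 1 had an unadjusted p under 0.05, against 2.71% of rows. Every 95% interval of the juvenile to adult difference lay within 0.5 Z units of 0, and 60 of the 67 lay within 0.25.

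The scores of the proliferation genes lay close across the stages. Those of Top2a and Bub1 are means of 2 features, whose correlation from mouse to mouse was 0.235 for Top2a and -0.113 for Bub1. Top2a ranged from -0.695 to -0.415 in the 10 juveniles (median -0.528), from -0.675 to -0.385 at 6 months (median -0.545), from -0.61 to -0.345 at 16 months (median -0.52) and from -0.58 to -0.38 at 24 months (median -0.503). These ranges overlapped almost in full. The adult mean exceeded the juvenile mean by 0.0253 ± 0.0284 (SE), with a 95% interval from -0.0316 to 0.0823. Ccna2 ranged from -0.25 to 0.32 in juveniles with a median of 0.11, and the difference to adults was 0.0127 ± 0.0469 (SE). Ccnb2 ranged from -1.03 to -0.79 in juveniles with a median of -0.91, and its adult AL mice ran from -1.15 to -0.67. Bub1 differed by 0.0273 ± 0.0248 (SE), and Cdkn3 by 0.00467 ± 0.0386 (SE). For these 5 genes, then, the interval of the difference included 0 and reached no farther than 0.107.

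Those members with the smallest p in this comparison were not the textbook genes of division. E2f4, an E2F that mostly represses and acts in quiescent cells, was -0.61 to -0.3 in juveniles (median -0.465) and averaged -0.459 there against -0.551 in adults. The difference was -0.0923 ± 0.0438 (SE, unadjusted p = 0.0399, adjusted p = 1 in limma), and 23 of 30 adults lay below the juvenile mean. Smc6, a subunit of a DNA repair complex of the Smc family, averaged 0.531 in juveniles and 0.413 in adults, and 27 of 30 adults lay below the juvenile mean. Mad2l1bp averaged 0.997 in juveniles and 1.07 in adults, a difference of 0.0733 ± 0.0356 (SE), with 28 of 30 adults above the juvenile mean. With the run in the model and without arrays 31 to 33, the difference of Mad2l1bp was 0.0909 ± 0.0251 (SE) with an adjusted p of 0.0693 in limma, the smallest among the members in this comparison. It was 0.123 within the first run (6 juveniles, 18 adults) and 0.0405 within the second (4 and 11).

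Within the juveniles, the 5 mice of 33 to 44 days were set against the 5 of 17 to 21 days, the age at which the cord still grows. Of the members 0 passed (0% of rows did), and 2 had an unadjusted p under 0.05, against 2.25% of rows. Top2a averaged -0.553 ± 0.0914 in the younger and -0.521 ± 0.081 in the older mice (SD, n = 5 each), and Ccnb2 -0.924 ± 0.0929 and -0.874 ± 0.0654. Bub1b, the checkpoint protein that binds Bub3, averaged -0.342 ± 0.154 and -0.294 ± 0.124. In all 3 genes the younger and older mice overlapped. Cenps, a centromere protein that also works in DNA repair, ran from -0.65 to -0.16 in the younger and from -0.26 to 0.06 in the older mice. Anapc10, which helps the anaphase-promoting complex hold its substrates, ran from -0.06 to 0.2 and from 0.14 to 0.35. Their differences were 0.188 ± 0.0844 and 0.186 ± 0.0918 (SE), both with an adjusted p of 1 in limma. The run was mixed with age here too, with 3 of 5 younger and 1 of 5 older mice in the second run, and with run in the model the differences were 0.144 and 0.137.

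**Figure D3:**
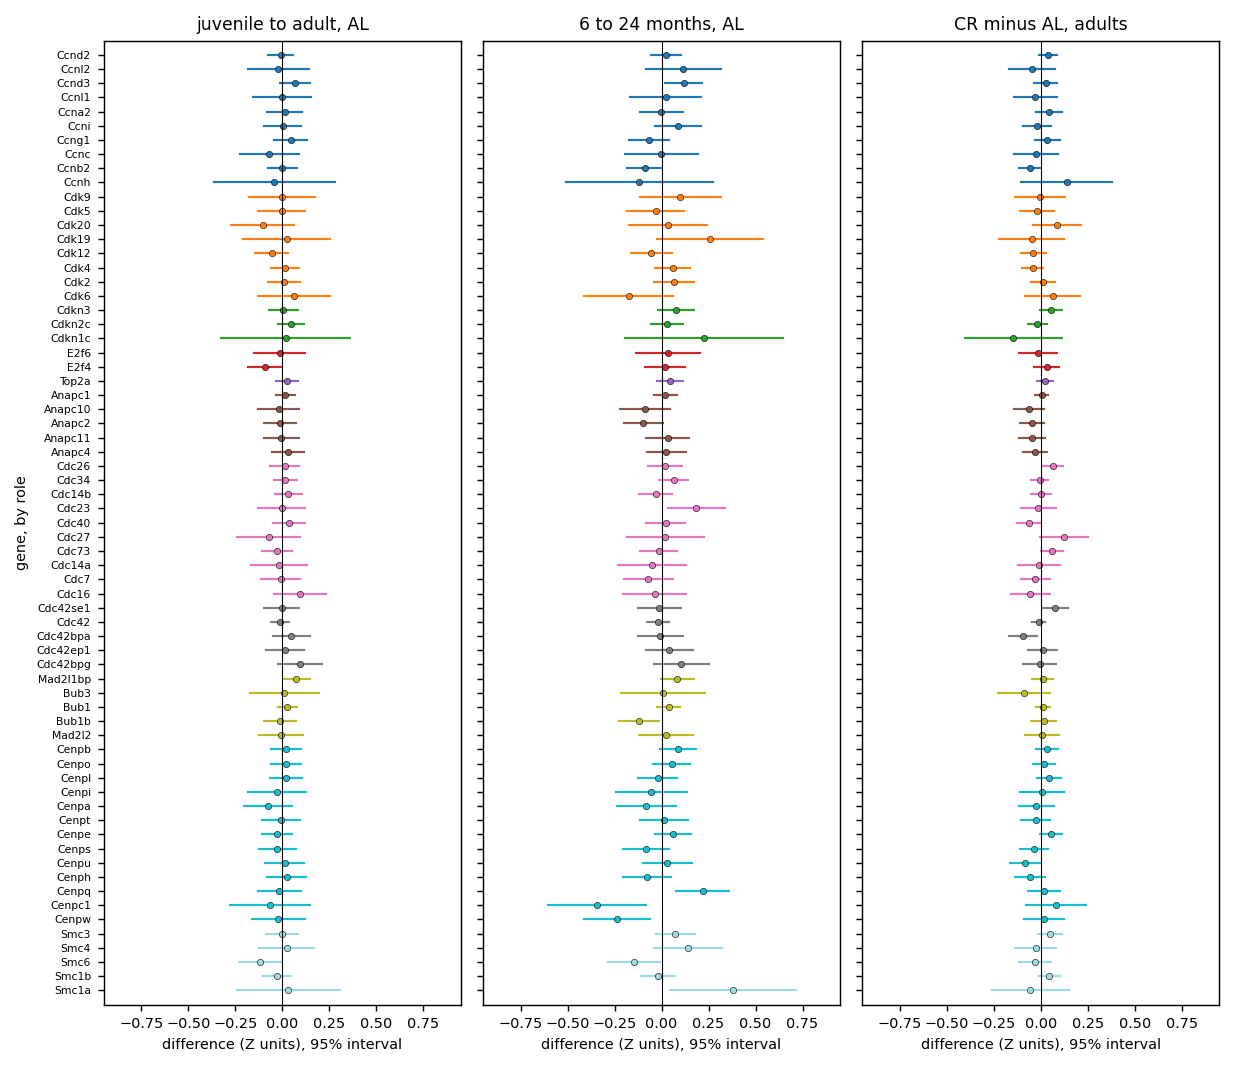
Difference in Z units (horizontal axes, point, with its 95% interval as a line) of each of the 67 genes from juvenile to adult AL mice, from 6 to 24 months in AL mice, and of CR minus AL over the 3 adult ages, coloured by role. Intervals that leave out 0 are few, and 0 of them passed the adjustment over 7782 rows. The widest intervals in each panel belong to Cdkn1c.

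On the deposited scores the steps from 6 to 16 and from 6 to 24 months in AL mice had the largest shares of rows with a small p among the 14 comparisons, and the share among the cell cycle genes was below that of all rows in both. With run in the model and without arrays 31 to 33 these shares of rows were 6.72% and 3.74%, and the largest was 18.4%, for CR against AL at 24 months. From 6 to 24 months 0 members passed (0.0643% of rows did), while 8 had an unadjusted p under 0.05 (11.9%, against 13% of rows), 4 higher and 4 lower at 24 months. From 6 to 16 months 0 members passed (0.0257% of rows), and 6 had an unadjusted p under 0.05 (8.96% against 13.3%). From 16 to 24 months 0 passed (0% of rows), and 1 had an unadjusted p under 0.05, against 2% of rows. The median difference from 6 to 24 months was 0.0203 for the members and -0.003 over all rows. From 6 to 16 months it was 0.042 for the members and 0.01 over all rows, with 46 of 67 members positive (53.9% of rows were). With run in the model and without arrays 31 to 33 the median of the members was 0.00154 from 6 to 24 months (0.00308 over all rows) and 0.0149 from 6 to 16 months (0.00429 over all rows).

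Centromere proteins led the list from 6 to 24 months, 1 of them higher and 2 lower in old mice by their values. Cenpq, part of the network of proteins that sits on Cenpa nucleosomes, ran from -1.29 to -0.6 at 6 months (median -0.8) and from -0.85 to -0.4 at 24 months (median -0.585). Its lowest value at 6 months was on array 33, and the groups overlapped. The difference was 0.22 ± 0.0701 (SE, unadjusted p = 0.00275, adjusted p = 0.334 in limma), the smallest p of any member in any comparison on the deposited scores. Without arrays 31 to 33 the difference was 0.171, and with run in the model as well it was 0.0785 ± 0.0504 (SE).

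Cenpw, a histone-fold partner of Cenpt at the kinetochore, ran from -1.55 to -1.02 at 6 months (median -1.38) and from -2.03 to -1.37 at 24 months (median -1.59). All 10 old mice lay below the mean of the young ones. The difference was -0.237 ± 0.0873 (SE, adjusted p = 0.334 in limma). Without array 33 it was -0.19, the smallest in size of the 65 fits that left out 1 mouse. With run in the model and without arrays 31 to 33 it was -0.24. It was -0.283 within the first run and -0.188 within the second, although the second run held only 1 mouse of 6 months outside arrays 31 to 33. Cenpc1, which links centromeric chromatin to the outer kinetochore, averaged -1.23 at 6 months and -1.57 at 24 months, and all 10 old mice lay below the young mean. Its difference of -0.343 ± 0.129 (SE) was -0.0402 ± 0.0701 (SE) with run in the model and without arrays 31 to 33. The gene itself lay 0.468 lower in the second run.

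The other members of the 8 differed in how far their values moved with run in the model. Smc1a, a core cohesin subunit, averaged -0.153 at 6 months and 0.227 at 24 months, and Cdc23, a subunit of the anaphase-promoting complex, -0.028 and 0.157. With run in the model the difference of Smc1a fell from 0.38 to 0.0559 and that of Cdc23 from 0.185 to 0.0192. Both are outside the naming rule and were added to complete the 8. Cdc23 is a mean of 2 features, whose correlation from mouse to mouse was -0.28. Ccnd3 (cyclin D3, a G1 cyclin) ran from -0.02 to 0.3 at 6 months (median 0.075) and from 0 to 0.32 at 24 months (median 0.235), with 9 of 10 old mice above the young mean. Its difference was 0.117 ± 0.0494 (SE, adjusted p = 0.342 in limma), and 0.0976 with run in the model. Smc6 averaged 0.516 and 0.37, and all 10 old mice lay below the young mean. Its difference of -0.146 was -0.0887 with run in the model, -0.103 within the first run and -0.187 within the second. Bub1b averaged -0.248 and -0.366, and the difference of -0.118 ± 0.0528 (SE) was -0.0692 with run in the model, -0.065 within the first run and -0.04 within the second.

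Of the 14 measured textbook genes, Ccnd3 and Bub1b were the 2 with an unadjusted p under 0.05 from 6 to 24 months. Top2a differed by 0.045 ± 0.0348, Ccna2 by -0.001 ± 0.0575, Ccnb2 by -0.089 ± 0.0469 and Bub1 by 0.039 ± 0.0304 (SE each). The largest differences among the 14 were those of Cdkn1c, at 0.225 ± 0.21, and Cdk6, a G1 kinase, at -0.175 ± 0.117 (SE each), with intervals that included 0. By role, the 10 cyclins had a median difference of 0.0108 (range -0.119 to 0.117), the 8 kinases 0.0468 (-0.175 to 0.257), the 13 centromere proteins -0.02 (-0.343 to 0.22), the 5 Anapc subunits 0.0203 (-0.097 to 0.033) and the 5 Smc genes 0.072 (-0.146 to 0.38). Each of these 5 roles held genes on both sides of 0, whereas the 3 Cdkn genes were all above 0 (0.029 to 0.225), as were both E2F factors (0.019 and 0.034). These role values are on the deposited scores, in which run and age were partly mixed. Some ends of the ranges belong to genes with large run differences, such as Cdk19 (0.594), Smc1a (0.738) and Cenpc1 (-0.468). The 95% intervals of 53 members lay within 0.25 Z units of 0, and their median half-width was 0.121.

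In CR mice the same steps gave 0 members past the adjusted threshold from 6 to 16 months (0% of rows), 0 from 16 to 24 months (0% of rows) and 0 from 6 to 24 months (0.0257% of rows). Unadjusted p-values under 0.05 were found for 4, 3 and 4 members, against 6.87%, 5.29% and 8.75% of rows. Cenpa ran from -0.03 to 0.56 at 6 months (median 0.125), from -0.11 to 0.25 at 16 months (median 0.12) and from -0.18 to 0.32 at 24 months (median -0.15). At 24 months 6 of 7 CR mice lay below both earlier means and 1 lay at 0.32. The difference from 16 to 24 months was -0.185 ± 0.0859 (SE, adjusted p = 0.809 in limma), and it was -0.176 within the first run and -0.153 within the second. The AL mice had Cenpa medians of 0.025, 0.01 and 0.045 at the same 3 ages.

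The differences of Anapc11 and Ccnc from 6 to 16 months in CR mice rested on arrays 31 and 32, which were 2 of the 8 CR mice at 6 months. Anapc11, the RING subunit of the anaphase-promoting complex, ran from -1.07 to -0.36 at 6 months (median -0.485) and from -0.53 to -0.38 at 16 months (median -0.465). The difference of 0.16 ± 0.0616 (SE) was -0.001 without arrays 31 to 33. Ccnc, the cyclin of the Mediator complex, had a difference of 0.247 from 6 to 16 months and of 0.0483 without those arrays. Whether the change from 6 to 24 months differed between the diets was tested as an interaction, and 0 members passed in limma (0 of all rows, and 0 members had an unadjusted p under 0.05, against 1.54% of rows).

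Restriction itself was compared with AL at each age. At 6 months 0 members passed (0.0257% of rows), at 16 months 0 (0% of rows), at 24 months 0 (0% of rows) and over the 3 ages together 0 (0.0129% of rows). Unadjusted p-values under 0.05 numbered 5, 0, 4 and 4, against 7.7%, 0.797%, 7.35% and 10.5% of rows. Over the 3 ages the median difference was -0.0055 for the members and -0.00117 over all rows, and 64 of 67 intervals lay within 0.25 Z units of 0.

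At 6 months Ccnb2 ran from -0.98 to -0.67 in AL mice (median -0.875) and from -1.27 to -0.82 in CR mice (median -0.975), with 7 of 8 CR mice below the AL mean. The difference was -0.134 ± 0.0506 (SE, adjusted p = 0.558 in limma), and -0.0773 without arrays 31 to 33. Anapc2, the cullin subunit of the anaphase-promoting complex, differed by -0.139 ± 0.0565 (SE) with those arrays and by -0.0103 without them. Both values thus moved by over 1.5 times with the same 3 mice.

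At 24 months Cdc73, a subunit of the Paf1 complex of transcription, ran from -1.12 to -0.83 in AL mice (median -0.975) and from -0.99 to -0.72 in CR mice (median -0.78). The difference was 0.151 ± 0.0544 (SE, unadjusted p = 0.00735, adjusted p = 0.636 in limma). With run in the model and without arrays 31 to 33 it was 0.144 ± 0.0436 (SE) with an adjusted p of 0.0948, and it was 0.175 in the first run and 0.0817 in the second. Cdc40, a splicing factor, differed by -0.148 ± 0.0578 (SE), Cdc42se1 by 0.147 ± 0.0625 (SE) and Smc1b, a meiotic cohesin subunit, by 0.118 ± 0.0503 (SE). For Smc1b each of the 7 CR values exceeded the mean of the AL mice. Smc1b is a mean of 2 features, whose correlation from mouse to mouse was -0.164. Over the 3 ages the smallest p was that of Cdc42bpa, a kinase that acts downstream of Cdc42, at -0.0948 ± 0.0365 (SE), with 19 of 25 CR mice below the AL mean. Its difference was -0.0579 without arrays 31 to 33.

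Males and females were compared over the adult ages, with 0 members past the adjusted threshold (0% of rows) and 3 with an unadjusted p under 0.05 (4.48%, against 3.51% of rows). Males minus females, Cdk12, a kinase of RNA polymerase II, had a difference of -0.0778 ± 0.0333 (SE) and Ccng1, a cyclin induced by DNA damage, of 0.0709 ± 0.0329 (SE), both with an adjusted p of 0.991 in limma. For Ccng1 the difference was 0.0373 without arrays 31 to 33. Cdk12 is a mean of 2 features, whose correlation from mouse to mouse was -0.0554. The effect of restriction did not pass the test of a sex difference for any member (limma, 0 of all rows, and 0 members with an unadjusted p under 0.05, against 3.29% of rows). In the test of any difference among the 7 stage and diet groups 0 members passed (0.206% of rows, 16, did), and Smc6, Cenpc1 and Cenpq, 3 members or 4.48%, had an unadjusted p under 0.05, against 8.94% of rows.

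**Figure D4:**
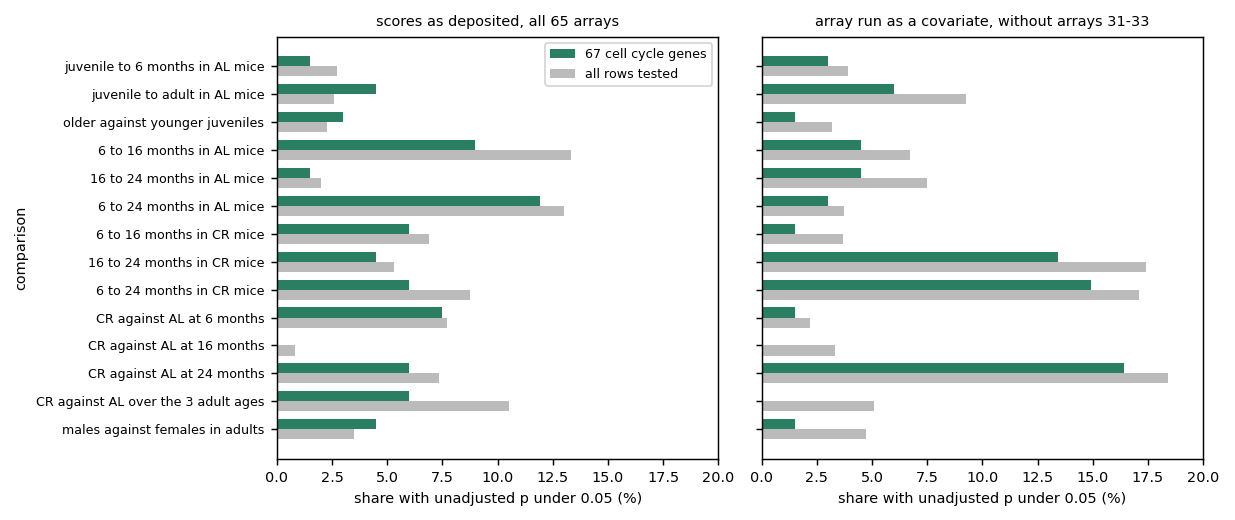
Share with an unadjusted p under 0.05 (horizontal axes, percent) among the 67 cell cycle genes and among all 7782 rows in each of 14 comparisons, on the deposited scores and with the array run as a covariate without arrays 31 to 33. The bars of the cell cycle genes exceed those of all rows in 3 comparisons on the left, juvenile to adult, older against younger juveniles and the sexes, and in 0 of the 14 on the right.

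More of these genes differed between the runs than in any of the 14 comparisons. With stage, diet and sex in the model and without arrays 31 to 33, 28 of the 67 members (41.8%) differed between runs in limma, against 47% of rows, 14 higher and 14 lower in the second run. Because the runs were divided by these same scores, the count and the separations below describe the division and are no test of it. Cdkn1c, an inhibitor of cyclin-dependent kinases that holds cells out of the cycle, had its 41 first-run values between -0.44 and 0.31 and its 21 second-run values between 0.52 and 0.92. Smc1a ran from -0.47 to -0.04 and from 0.34 to 0.63, and Cdk19, a Mediator kinase, from -0.59 to -0.03 and from 0.17 to 0.52. For these 3 genes and Cdc23, 4 members in all, the runs did not meet, whatever the age and diet of the mice, and Smc1a, Cdk19 and Cdc23 are named for that. From 6 to 24 months in AL mice, Cdkn1c had a difference of 0.225 ± 0.21 (SE) on the deposited scores and of 0.0259 ± 0.0725 (SE) with run in the model. With run in the model 0 members passed in any of the 14 comparisons (limma), in which between 0% and 0.707% of rows did.

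The run-adjusted comparisons with most members at an unadjusted p under 0.05 were those of old CR mice. CR against AL at 24 months had 11 (16.4%, against 18.4% of rows), 6 higher and 5 lower in CR mice, among them Cdc73, Smc1b, Cenpa and Cdkn1c. In CR mice there were 10 from 6 to 24 months (14.9% against 17.1%), 9 from 16 to 24 months (13.4% against 17.4%) and 1 from 6 to 16 months (1.49% against 3.7%). In AL mice there were 2 from 6 to 24 months (Ccnd3 and Cenpw, against 3.74% of rows), 3 from 6 to 16 months (against 6.72%) and 3 from 16 to 24 months (against 7.48%). The juvenile comparisons had 4 to adults (Cenpa, E2f4, Mad2l1bp and Smc6, against 9.26%), 2 to 6 months (against 3.93%) and 1 between older and younger juveniles (Anapc11, against 3.2%). CR against AL had 1 at 6 months (Cenpw, against 2.18%), 0 at 16 months (against 3.3%) and 0 over the 3 ages (against 5.08%), and the sexes had 1 (Cdk12, against 4.72%). In each of the 14 the share among the members lay below the share among all rows.

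The selection of the study's methods, which asks for a mean above 0 over the 2 conditions compared, a z-ratio of at least 1.5 in size and an unadjusted p under 0.05, could take between 29 and 31 of the 67 members, by comparison. It took 1 from juvenile to adult (Smc6, where 0.617% of rows were taken), 1 from 6 to 24 months in AL mice (Smc1a, 1.75%), Cenpa from 16 to 24 and from 6 to 24 months in CR mice (2.49% and 3.39%), and Ccnl1 for CR at 24 months (2%). It took 0 from juveniles to 6 months (0.206%), between juveniles (0.103%), from 6 to 16 months in AL mice (0.938%) and in CR mice (0.694%), from 16 to 24 months in AL mice (0.861%), for CR at 6 months (0.591%), at 16 months (0.989%) and over the ages (1.11%), and between the sexes (0.463%). After Benjamini-Hochberg adjustment of the same p-values 0 members were left.

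**Figure D5:**
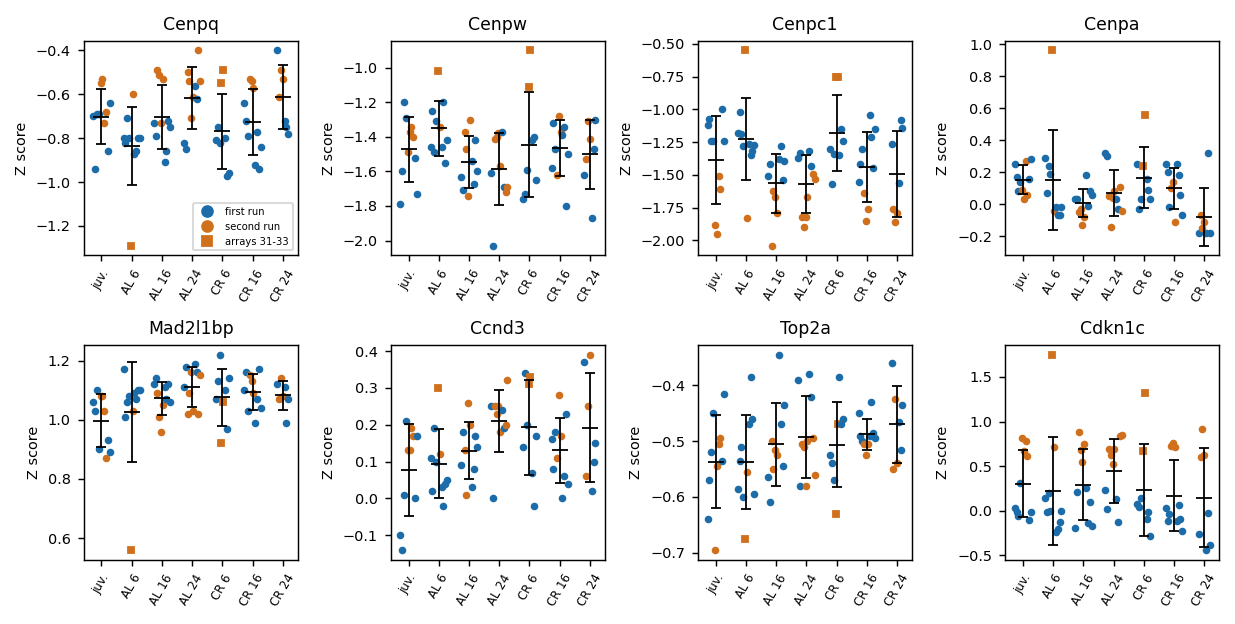
Z score (vertical axes) of 8 genes in each mouse of the 7 stage and diet groups, with the mean and SD of the group as black bars, and with colours for the run and squares for arrays 31 to 33. Cdkn1c separates by colour and not by group, Mad2l1bp and Cenpa at 6 months each have a square far from the other mice, and the groups of Top2a overlap.

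The cell cycle genes did not move together from mouse to mouse more than other rows. Over the 2211 pairs of members, the correlation of residuals on 62 arrays had a median of 0.00139 (5th to 95th percentile, -0.373 to 0.418), and over all pairs of the 7782 rows a median of -0.00784 (-0.413 to 0.445). These correlations share arrays and filter positions and are a description. The strongest pairs were Cenpi with E2f6, Cdk9 with Cenpi and Cdk9 with E2f6, at 0.831, 0.83 and 0.826, and the 3 genes lie at neighbouring places (8, 9 and 10) of the repeat of 22 feature numbers. The 6 genes with a CHR and at least 2 CCAAT boxes had 15 pairs with a median of -0.0586 (-0.415 to 0.321), with Ccnb2 and Top2a at -0.0921 and Cdkn3 and Cenpa at -0.264. Members with a CHR had a median juvenile to adult difference of 0.001, and those without one of -0.00233. From 6 to 16 months in AL mice the median was -0.0355 for the 14 genes with a CHR (4 positive) and 0.046 for the 43 without (33 positive). From 6 to 24 months it was -0.0355 and 0.023 in AL mice, and -0.0373 and 0.0314 in CR mice. From juveniles to 6 months the order was reversed, at 0.026 with a CHR and -0.0147 without. It was reversed as well from 16 to 24 months in AL mice, at 0.013 and -0.019. In CR mice from 6 to 16 months the medians were 0.0142 and 0.029. The AL group at 6 months holds array 33. These medians are given without a test, on scores in which run and age were partly mixed.

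A wider list of 114 other cell cycle genes, such as replication licensing factors (Mcm), mitotic kinesins (Kif) and origin proteins (Orc), had 50 measured on the filter. Of these 0 passed in each of the 14 comparisons (limma). From juvenile to adult 1 of 50 had an unadjusted p under 0.05 (2%, against 2.57% of rows), from 6 to 16 months in AL mice 10 (20%, against 13.3% of rows), 5 higher and 5 lower, from 6 to 24 months in AL mice 8 (16%, against 13% of rows), 4 higher and 4 lower, and for CR over the 3 ages 6 (12% against 10.5%). Orc6, a subunit of the origin recognition complex, was the 1 gene of the first comparison, with a difference of 0.102 ± 0.0388 (SE, adjusted p = 1). Mcm2, which unwinds DNA at replication forks, differed by -0.203 ± 0.0969 (SE) between older and younger juveniles, and by -0.103 with run in the model. From 6 to 24 months Tacc3, a spindle protein, differed by -0.146 ± 0.0473 (SE), and Mcm6, a further helicase subunit, by 0.105 ± 0.0462 (SE). With run in the model these were -0.137 and 0.0526. Kif4, a mitotic kinesin, had the smallest p of the list, with a difference of 0.613 ± 0.168 for CR against AL at 6 months (SE, adjusted p = 0.554 in limma) and of -0.638 ± 0.168 from 6 to 16 months in CR mice (SE, adjusted p = 0.453). These were 0.52 and -0.52 with run in the model.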

How the data were processed

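The labels give 1 radiolabelled spinal cord RNA sample per array and 1 mouse per array. Per the labels and the study's methods, the authors hybridised it to a nylon filter of cDNA clones, scanned it and transformed each array to Z scores. The deposited score has no stated log base or background step, and 0 columns of samples were left out. Gene names came from the platform annotation, in which 4875 of 8448 features (57.7%) had 1 symbol, and all 67 members matched a RefSeq symbol.

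Deposited scores were averaged over features of 1 gene, and 7782 rows were fitted in limma (version 3.58.1, R 4.3.3) with a mean for each of 14 stage, diet and sex groups (51 residual degrees of freedom). Both sexes had equal weight, and p-values were adjusted by Benjamini-Hochberg over all rows with a threshold of 0.05. The members, the role groups and the gene lists were chosen with earlier results of these data known. Genes named by the rule were any past the threshold, the 10 with the smallest p among the 7 groups, the 2 with the smallest p in each comparison and measured textbook genes, 35 in all. One array whose labels conflict was kept by its title. Tested on simulated data of the 6 to 24 month AL comparison with 7782 rows, the fit called 44.8% of genes changed by 0.2 Z units, 88.1% at 0.4 and 95.5% at 0.8. The simulated noise was independent for each row and array, with no run shift and no correlation between arrays. It changed 67 rows by 0.2, 67 by 0.4 and 66 by 0.8 at once, whereas 5 rows passed in the real comparison. The Benjamini-Hochberg threshold is easier to pass when more rows change. These rates may therefore differ from those of the real arrays. Alternatives were array weights, robust regression, quantile and median scaling, centring on filter positions, single features, a filter on rows with mean Z above 0, sex left out, the run as a covariate, sets of array numbers as a block, arrays left out, and the z-ratio selection of the methods. The two-way ANOVA of the methods was not run.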

Additional observations from a re-analysis of the deposited data

Results flagged for a closer look

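A mouse far from the others of its stage and diet group (gap to the nearest mouse over the range of the group, by Dixon's test) was found in 30 of 245 sets of 1 gene and 1 group, over the 35 named genes. This is 12.2%, where chance flags about 5%, or 1 in 20. In 22 sets the mouse was the lowest and in 8 the highest.

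Array 33, the AL male at 6 months that stood apart over the whole filter, gave 16 of the 30. It was the lowest of its group for Anapc11 (-0.74), Ccnc (-1.3), Ccnd2 (0.432), Cdc42se1 (1.16), Cdk2 (-1.02), Cdk5 (-0.51), Cdkn2c (0.43), Cenpq (-1.29), E2f4 (-0.97), Mad2l1bp (0.56) and Smc1b (-0.475). It was the highest for Anapc2 (0.36), Bub3 (1.63), Ccng1 (0.21), Cdkn1c (1.75) and Cenpa (0.96). The genes included the kinases Cdk2 and Cdk5 and the inhibitors Cdkn1c and Cdkn2c. Array 32, a CR mouse at 6 months, was the lowest for Cdc42 (-0.31) and Cdc73 (-1.19).

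The other 12 sets involved 11 arrays. Among AL mice, the lowest mouse stood apart at 16 months for Anapc11 (-0.56) and Cdk2 (-0.81), and at 24 months for Ccnb2 (-1.15), Cdk5 (-0.21), and, both on array 14, Ccnd3 (0) and Cenpw (-2.03). Among CR mice it did so at 6 months for Bub1 (-0.18), at 16 months for E2f4 (-0.7) and at 24 months for Anapc2 (-0.36). The highest CR mouse stood apart at 16 months for Anapc10 (0.37) and Cenps (-0.02), and at 24 months for Cenpa (0.32). Cenpa at 24 months is the group in which the other 6 CR mice lay between -0.18 and -0.07.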

How the results depend on the processing

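All 15 counts of members past the threshold stayed at 0 in each of 65 fits that left out 1 mouse, and the smallest adjusted p of a named gene there was 0.0732 (limma). The labels give no replicate numbers, but the array numbers run in 5 successive sets through the groups. With these sets as a replicate block, added after the data were seen, the 15 counts stayed at 0, also with the run added and arrays 31 to 33 left out. Deviations from group means had a median correlation of 0.278 within sets and -0.0985 between them, and 39 of 65 arrays were closest to their own set. Over 15 alternatives, 10 of 222 counts rose above 0. With array weights, whose fit stopped before convergence, 13 members passed from 6 to 24 months in AL mice (8 higher, 5 lower), where 22.2% of rows did, Cenpq among them (0.218). Robust regression, added after the data were seen, called 1 member from 6 to 24 months in AL mice (Ccnd3, 0.134), 1 in CR mice (Cenpa, -0.247), 2 for CR at 24 months (Cdc42se1 and Smc1b) and 3 among the 7 groups (Ccnd3, Cdk5 and Cenpa). There 1.07%, 4.72%, 1.7% and 10.5% of rows passed. The methods' selection (z-ratio of at least 1.5 in size, unadjusted p under 0.05) chose 1 member each from juvenile to adult (Smc6), from 6 to 24 months in AL mice (Smc1a), from 16 to 24 and from 6 to 24 months in CR mice (Cenpa both times) and for CR at 24 months (Ccnl1), against 0.617%, 1.75%, 2.49%, 3.39% and 2% of rows. After Benjamini-Hochberg adjustment the methods' t-test kept 0 of them. Of 369 gene values 366 kept direction and side of the threshold. As 0 of the main values passed, a value kept its side by not passing, however much its size changed. Some settings left differences unchanged by design, such as the filter on rows with mean Z above 0. The value of Anapc11 from 6 to 16 months in CR mice turned to -0.001 without arrays 31 to 33. The cause was not tested. Differences of 0.2 Z units or less, and larger ones in some genes, could be missed at these numbers of mice. In simulated data of the 6 to 24 month AL comparison, 44.8% of changes of 0.2 and 88.1% of 0.4 were called. Those data had no run shift and many rows changed at once, and no change was simulated in the smaller CR groups. The rates are thus no detection limits for the real comparisons.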
